A study of Rattus norvegicus with 15 samples.

Results

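Organic anions, organic cations and carnitine cross cell membranes through carriers of the Slco family (organic anion transporting polypeptides) and the Slc22a family (organic cation, carnitine and organic anion transporters). The genes described here were every gene whose name on the array began with Slco or Slc22a followed by a number. There were 28 such genes with 32 probes, of 35529 genes on the array, and all 28 were among the 33639 genes that passed the brightness filter and were tested. Another 6 genes of these families sit on the array under older or provisional names and were not counted (Slco1a1, Slco1a3, Slco1a6, Slc22a20, Slc22a22 and Slc22a23).

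Mucosal cell suspensions of the rat came from 5 segments of the digestive tract, 3 samples each and 15 in all: the stomach, the duodenum, the jejunum, the ileum and the colon. Per the labels the animals were untreated male Sprague Dawley rats, except that the label of ileum 3 gives neither strain nor gender, and no age is given. Cells were released from everted segments by a brief pronase treatment and enriched by elutriation, a sorting in a centrifugal flow, so each sample was a mixture of mucosal cells. Whether the 3 isolations of a segment are of separate animals is not in the labels, and the p-values cover the spread between isolations, which may be technical.

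Slco proteins carry bile acids, conjugated steroids, thyroid hormones, prostaglandins and many drugs into cells. Slc22a proteins carry choline-like and monoamine cations, carnitine and ergothioneine, or organic anions such as urate, and most are best known from kidney and liver. In the gut they stand beside the peptide carrier Slc15a1, the bile acid carriers Slc10a2 and Slc51a with Slc51b, and the ATP-driven efflux pumps of the Abc family. They are followed here from the mouth end of the tract towards the anus.

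A level below is the log2 of the scanner's processed intensity minus the 75th percentile of its sample. Levels of one probe can be compared between samples, and levels of different genes cannot. Differences are log2 differences from one limma fit over all 15 samples, each with its standard error (SE), and a gene was called at a Benjamini-Hochberg adjusted p under 0.05 over all tested genes. The small bowel stands for the mean of duodenum, jejunum and ileum (9 samples). RNA was measured in bulk, so fewer cells of a type and less RNA per cell cannot be told apart. A pair of other settings was run: no further scaling, which leaves the processed signals as deposited, and normexp. Normexp is a background correction that models the background instead of subtracting it. Each is given where it ended a call of these genes between stomach and small bowel, jejunum and ileum, or small bowel and colon. It is also given beside some results whose value it moved.

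As means of lists, marker genes went with the segment labels. The mean level of 5 gastric epithelial genes, among them the proton pump subunits Atp4a and Atp4b, was 5.81 to 6.83 in the stomach samples and at most 0.72 in any other sample. The mean of 6 absorptive genes of the small bowel, among them sucrase-isomaltase Si, was -2.76 to -2.42 in the stomach, 1.09 to 6.19 in the samples of the small bowel and -2.94 to -2.77 in the colon. Of those 6, 1 was not well above background in any stomach sample and 2 in any colon sample. The mean of 5 colon genes was 0.04 to 1.25 in the colon, and all other segments lay between -3.02 and -0.84. The 0.04 is of colon 3, where Car1 was missing (6.90 and 7.10 in colon 1 and 2). Of the 5 genes, 4 were higher in the colon than in the small bowel. Hoxd10 was not (small bowel minus colon 0.65, adjusted p = 0.365), and it was higher in stomach than small bowel (1.15, adjusted p = 0.0422). Slc26a3 averaged 2.95 in the duodenum and 2.85 in the colon (3 samples each). Stomach, ileum and colon samples were scanned on days that held no other segment, so segment and scan day cannot be told apart for them. Colon 1 and colon 2 were the channels of 1 array, and colon 3 was read with the dye of colon 2 in another scan that names the same slide. Of 43628 spots the software marked 27 as non-uniform in colon 2 and 33 in colon 3, and 14 of these were the same spots, whereas samples on different slides shared at most 2. The colon values may thus hold 2 samples in place of 3, and colon results are also given with colon 2 and 3 averaged into 1 sample, a setting chosen after seeing the data.

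Many of the carriers were dim. The scanner software marks a spot as well above background when its background-subtracted signal exceeds a set multiple of its estimate of background noise, a multiple that was 2.6 for stomach arrays and 13 for the small bowel and is not given in the colon headers used here. Of the 28 genes, 13 were well above background in all 15 samples (46.4%), against 43.2% of all tested genes. Without the stomach marks 24 of the 28 would have passed the filter (85.7%, against 81.6% of all tested genes). The 4 that passed through the stomach alone were Slc22a6, Slc22a8, Slco1c1 and Slco2a1. No member was saturated in any sample.

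Across the tract, 13 of the 28 genes differed between the 5 segments by the F test, close to the 42.1% of all tested genes. Against the small bowel, the stomach had 8 genes higher, where 15.5% of all genes were higher, and 4 lower, where 11.8% were lower. Of the 8, Slc22a6 and Slco2a1 had passed the brightness filter through the stomach alone, the segment where they were high, and without the stomach marks 6 were higher. In the contrast of duodenum and jejunum limma called 0 of the 28 genes, with 0.253% of all genes higher and 0.300% lower in the duodenum. The jejunum exceeded the ileum for 1 gene, Slc22a7 (2.74% of all genes), and was below it for 0 (1.46% of all genes). The small bowel exceeded the colon for 4 genes (13.2% of all genes) and was below it for 4 (12.6% of all genes), a count of 8 that became 4 without colon 1 and 5 without stomach 1 or 2. With colon 2 and 3 as 1 sample it was 4 as well: Slc22a7 and Slc22a24 higher and Slc22a13 and Slc22a17 lower in the small bowel. Median differences of the 28 genes were 0.195, -0.195, 0.141 and 0.033 in these 4 contrasts in that order, beside medians of 0.28, -0.023, -0.099 and -0.003 over all tested genes.

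Some genes exceeded, in 1 segment, each of the other 4 with an adjusted p under 0.05. The stomach was highest for 3 genes, Slc22a12, Slc22a2 and Slco2a1 (3.94% of all genes), and the colon for 1, Slc22a13 (3.42% of all genes). Slco2a1 was tested through its stomach marks alone and was not among the genes without them. Slc22a13 was no longer highest in the colon with quantile normalisation, no further scaling or normexp, and normexp gave Slc22a18 and Slco2b1 as highest there. Of these 4 genes, Slc22a13 alone was left without stomach 1 or stomach 2, Slc22a13 and Slco2a1 without stomach 3, and Slc22a13 and Slc22a12 without duodenum 1. The duodenum, jejunum and ileum were highest for 0 genes, as for 0.0595%, 0.0446% and 0.175% of all genes. In the jejunum minus ileum contrast 6 members had an unadjusted p under 0.05 (21.4% of them and of all genes), and in the duodenum minus jejunum contrast 2 did (7.14%, against 8.56% of all genes).

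**Figure D1:**
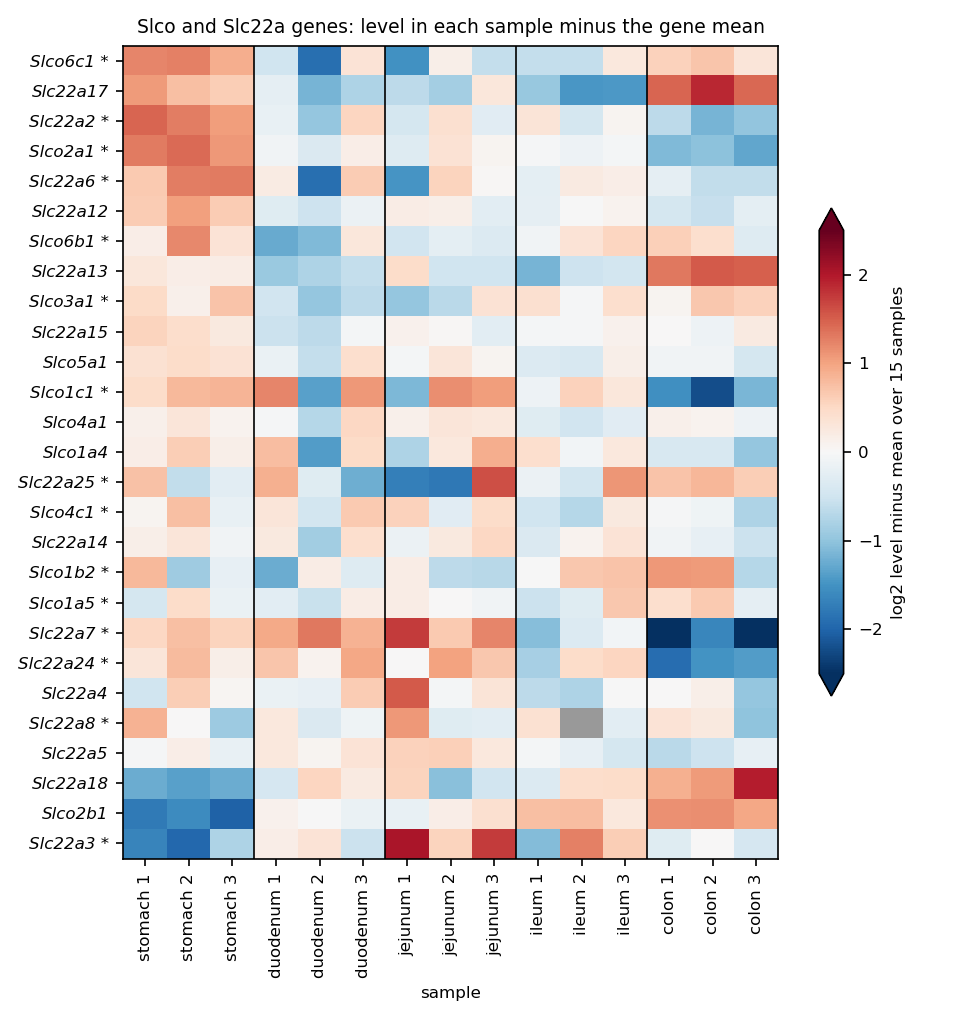
Log2 level of 27 Slco and Slc22a genes in each of the 15 samples, as the difference from the mean of that gene over the samples (colour, cut at the ends of the scale). Rows run from the largest positive to the largest negative stomach minus small bowel difference, an asterisk marks a gene not well above background in all 15 samples, and grey is the missing spot of Slc22a8. Slco6c1 and Slc22a17 stand at the top, Slco2b1 and Slc22a3 at the bottom, and the 3 colon samples are dark blue for Slc22a7.

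Of the organic cation carriers, the stomach had less Slc22a3 and more Slc22a2 signal than the small bowel. Slc22a3 is the extraneuronal monoamine transporter, and Slc22a2 is known from the basolateral side of kidney tubules. In the gene order of the rat assembly GRCr8 (RefSeq) they have 3 genes between them. The Slc22a2 probe is shown, 5′ to 3′ as on the array, because this gene was highest in the stomach.
Slc22a2 probe: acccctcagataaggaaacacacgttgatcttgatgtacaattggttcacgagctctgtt

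Slc22a3 had stomach levels of -4.03, -4.34 and -3.16, duodenum levels of -2.22, -2.05 and -2.92, jejunum levels of -0.33, -1.82 and -0.64, ileum levels of -3.48, -1.12 and -1.77, and colon levels of -2.69, -2.37 and -2.80. Ileum 1 lay among the stomach values and was the only sample in which the probe was not well above background. The stomach minus small bowel difference was -2.03 ± 0.44 (SE, adjusted p = 0.00203). It was -1.17 and not called with no further scaling (adjusted p = 0.0734), and -1.11 after normexp (adjusted p = 9.92e-05). The jejunum had the highest mean, and its lowest sample, jejunum 2, was below 2 of the ileum samples. Stomach minus jejunum was -2.91 ± 0.52 (adjusted p = 0.00054) and jejunum minus colon 1.77 ± 0.62 (adjusted p = 0.0438), the second not called with colon 2 and 3 as 1 sample (1.75, adjusted p = 0.0742).

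Slc22a2 had stomach levels of -1.15, -1.34 and -1.56, duodenum levels of -2.80, -3.58 and -2.07, jejunum levels of -3.05, -2.21 and -2.89, ileum levels of -2.29, -3.04 and -2.55, and colon levels of -3.26, -3.78 and -3.60. All 3 stomach samples lay above all 12 others. The stomach minus small bowel difference was 1.37 ± 0.32 (adjusted p = 0.00358) and the stomach minus colon difference 2.11 ± 0.45 (adjusted p = 0.00174). After normexp the first was 0.59 (adjusted p = 0.0305). The probe was well above background in 2 of 3 samples of each small bowel segment and in all colon samples. No neighbouring pair in the order ileum, jejunum, duodenum, colon was called.

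Neither the carnitine nor the ergothioneine carrier was called in any of the 4 contrasts, although other settings called them in small bowel minus colon. Slc22a5, which takes up carnitine, and Slc22a4, the ergothioneine carrier, were well above background in all 15 samples. Slc22a5 averaged 0.67 ± 0.17 (stomach), 0.90 ± 0.14 (duodenum), 1.16 ± 0.19 (jejunum), and 0.45 ± 0.19 (ileum) (SD, n = 3 each), and 0.16 ± 0.23 in the colon (n = 2, colon 2 and 3 averaged). Its 3 jejunum samples were all above the 3 ileum samples, and jejunum minus ileum was 0.74 ± 0.24 (adjusted p = 0.0901). Jejunum minus colon was 0.92 ± 0.28 (adjusted p = 0.0224), the one pair of segments in which this gene was called. Small bowel minus colon was 0.60 (adjusted p = 0.0859), and it was called after normexp (0.89, adjusted p = 0.00478) and with no further scaling (1.88, adjusted p = 0.00105). The median of all genes in this contrast was -0.329 after normexp and 1.275 with no further scaling. Slc22a4 had jejunum minus ileum 1.12 ± 0.48 (adjusted p = 0.19), with jejunum 1 at 2.07 and the other 14 samples at or below 1.17. Its F test gave an adjusted p of 0.331. With no further scaling Slc22a4 was called in small bowel minus colon (1.58, adjusted p = 0.00644), where the median of all genes was itself 1.275. In the main scaling Slc22a4 had 0.30 there (adjusted p = 0.691).

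The brightest probes of these genes, which have 3 genes between them in GRCr8, align with each other. Over 57 aligned bases 41 were identical (71.9%) and 16 differed, and cross-hybridisation between them was not tested. Both are shown 5′ to 3′ for that reason. Capitals mark the differing bases.
Slc22a4 probe: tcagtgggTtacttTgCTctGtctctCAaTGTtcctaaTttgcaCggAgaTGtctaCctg
Slc22a5 probe: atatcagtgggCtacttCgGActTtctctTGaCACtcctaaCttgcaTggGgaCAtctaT
A second Slc22a5 probe, of another sequence, was also called in none of the 4 contrasts.

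Among organic anion and urate carriers, Slc22a7 and Slc22a24 were lower in the colon than elsewhere, Slc22a13 was highest there, and Slc22a12 was highest in the stomach. Slc22a7 exchanges organic anions in liver and kidney. It had stomach levels of -2.27, -2.06 and -2.25, duodenum levels of -1.85, -1.48 and -1.93, jejunum levels of -1.05, -2.15 and -1.59, ileum levels of -3.87, -3.15 and -2.87, and colon levels of -5.36, -4.44 and -5.72. All 9 stomach, duodenum and jejunum samples lay above the 3 ileum samples, and these above the 3 colon samples. The small bowel minus colon difference was 2.99 ± 0.45 (7.97-fold, adjusted p = 0.000149), with 1 of the 3 colon samples well above background. After normexp the same difference was 0.43 with an adjusted p of 0.209.

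Jejunum minus ileum was 1.66 ± 0.44 for Slc22a7 (adjusted p = 0.0415), the one call in that contrast. It was no longer called when any one of stomach 1, 2 or 3, duodenum 1 or 2, jejunum 1 or 3, ileum 1, 2 or 3, or colon 1 was left out, where the difference was 1.36 to 1.88 with adjusted p between 0.0524 and 0.231. With scan day in place of slide as the block it was 1.72 (adjusted p = 0.0616). With no further scaling it was 0.93 (adjusted p = 0.377).

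Slc22a24, which the array names Slc22a19, carries steroid conjugates in humans. It had stomach levels of -1.99, -1.51 and -2.15, duodenum levels of -1.61, -2.22 and -1.33, jejunum levels of -2.30, -1.30 and -1.63, ileum levels of -3.13, -1.84 and -1.77, and colon levels of -4.20, -3.80 and -3.70. All 3 colon samples lay below all 12 others. Small bowel minus colon was 2.02 ± 0.43 (adjusted p = 0.00248), and 0.44 with an adjusted p of 0.134 after normexp. The related Slc22a25, named Slc22a9 on the array, had an SD of up to 1.95 within a segment and was called in none of the 4 contrasts. These are close relatives in a gene cluster, and signal shared between them cannot be separated here.

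Slc22a13, a carrier of nicotinate and urate, had stomach levels of 1.32, 1.20 and 1.23, duodenum levels of 0.11, 0.27 and 0.45, jejunum levels of 1.50, 0.54 and 0.53, ileum levels of -0.13, 0.53 and 0.58, and colon levels of 2.35, 2.57 and 2.53. Every colon sample exceeded every other sample, and jejunum 1 lay above the stomach. Small bowel minus colon was -2.01 ± 0.30 (4.02-fold lower in the small bowel, adjusted p = 0.000135). It was -0.73 and not called with no further scaling (adjusted p = 0.203), -1.23 after normexp (adjusted p = 0.000475) and -1.97 with colon 2 and 3 as 1 sample (adjusted p = 0.000943). Stomach minus colon was -1.24 ± 0.34 (adjusted p = 0.00907). Stomach minus small bowel was 0.76 ± 0.24 (adjusted p = 0.0247), a call lost without stomach 1, 2 or 3 (0.73, 0.79 and 0.77, adjusted p = 0.107, 0.0786 and 0.0968). Its direct neighbour in GRCr8, Slc22a14, a riboflavin carrier of mouse sperm, had mean levels between -0.73 and -0.25 in the 5 segments and an F test adjusted p of 0.81. The Slc22a13 probe is shown because this gene was highest in the colon with the scaling used here.
Slc22a13 probe: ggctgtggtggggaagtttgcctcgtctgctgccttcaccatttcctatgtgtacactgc

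Slc22a12, the urate exchanger of the kidney, was measured by a pair of probes that were well above background in all 15 samples. The brighter had stomach levels of 0.59, 0.98 and 0.59, duodenum levels of -0.34, -0.56 and -0.19, jejunum levels of 0.14, 0.09 and -0.31, ileum levels of -0.26, -0.06 and 0.03, and colon levels of -0.48, -0.62 and -0.29. The 3 stomach samples lay above all 12 others, and stomach minus small bowel was 0.88 ± 0.20 (adjusted p = 0.00305). The other probe gave 0.92 for this contrast (adjusted p = 0.00755). For small bowel minus colon the probes did not go together: the brighter gave 0.25 (adjusted p = 0.502) and the other -1.12 (adjusted p = 0.0108). The brighter probe averaged 0.72 ± 0.23 in the stomach and -0.47 ± 0.017 in the colon, and the other averaged -0.51 ± 0.06 in the stomach and -0.31 ± 0.29 in the colon (SD, n = 3 for the stomach and 2 for the colon, with colon 2 and 3 averaged). That the stomach was highest of all segments thus rests on the brighter probe. Both sequences are shown since their colon readings differ.
Slc22a12 brighter probe: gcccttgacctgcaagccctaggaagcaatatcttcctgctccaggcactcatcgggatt
Slc22a12 other probe: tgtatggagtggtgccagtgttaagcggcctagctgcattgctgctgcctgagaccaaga

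Slc22a6 and Slc22a8, the classical organic anion exchangers of the kidney, were dim. Slc22a6 averaged -2.41 ± 0.36 in the stomach, and its other segment means were between -3.97 and -3.45. Its stomach minus small bowel difference was 1.28 ± 0.46 (adjusted p = 0.046), with an adjusted p of 0.0501 to 0.217 when any one sample other than duodenum 1, duodenum 3, jejunum 2 or jejunum 3 was left out. After normexp it was 0.24 (adjusted p = 0.544). It too was tested through its stomach spots alone. Slc22a8 was well above background in 6 of 15 samples, in no jejunum sample, and the fit dropped ileum 2, where the scanner software marked its spot as an outlier. It was called in none of the 4 contrasts.

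Of the less studied Slc22a genes, Slc22a17 had the largest difference between small bowel and colon among the genes lower in the small bowel. Slc22a17 binds lipocalin-2 at the cell surface. It had stomach levels of 2.25, 1.93 and 1.79, duodenum levels of 0.95, 0.01 and 0.41, jejunum levels of 0.52, 0.33 and 1.46, ileum levels of 0.24, -0.27 and -0.26, and colon levels of 2.64, 3.05 and 2.61. Stomach and colon samples lay above all 9 samples of the small bowel. Stomach minus small bowel was 1.61 ± 0.25 (3.06-fold, adjusted p = 0.000123) and small bowel minus colon -2.36 ± 0.32 (5.14-fold lower in the small bowel, adjusted p = 5.15e-05). The second was -1.09 and not called with no further scaling (adjusted p = 0.0543), and -2.34 with colon 2 and 3 as 1 sample (adjusted p = 0.000222). Stomach minus colon was -0.75 ± 0.36 and was not called (adjusted p = 0.115). Jejunum minus ileum was 0.84 ± 0.31, with no overlap between their samples, and was not called (adjusted p = 0.129).

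Slc22a18, an imprinted gene in humans and mice, had a mean of -0.50 ± 0.07 (stomach), 0.89 ± 0.48 (duodenum), 0.45 ± 0.81 (jejunum) and 0.96 ± 0.45 (ileum) (SD, n = 3 each), and 1.97 ± 0.44 in the colon (n = 2, colon 2 and 3 averaged). Stomach minus small bowel was -1.27 ± 0.32 (adjusted p = 0.00686) and without stomach 3 -1.15 (adjusted p = 0.0572). With no further scaling it was -0.42 (adjusted p = 0.358). Small bowel minus colon was -1.20 ± 0.40 (adjusted p = 0.0381), and lost its call without stomach 1, 2 or 3, duodenum 2, jejunum 3, or colon 1 or 3 (-1.37 to -0.94, adjusted p = 0.0548 to 0.133), and with colon 2 and 3 as 1 sample (-1.15, adjusted p = 0.0644). With no further scaling the small bowel minus colon difference was 0.079 (adjusted p = 0.899). Stomach minus colon was -2.46 ± 0.45 (adjusted p = 0.000564). Slc22a15 was called in none of the 4 contrasts, although its 3 stomach samples lay above the small bowel samples (0.56 ± 0.23, adjusted p = 0.0853).

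**Figure D2:**
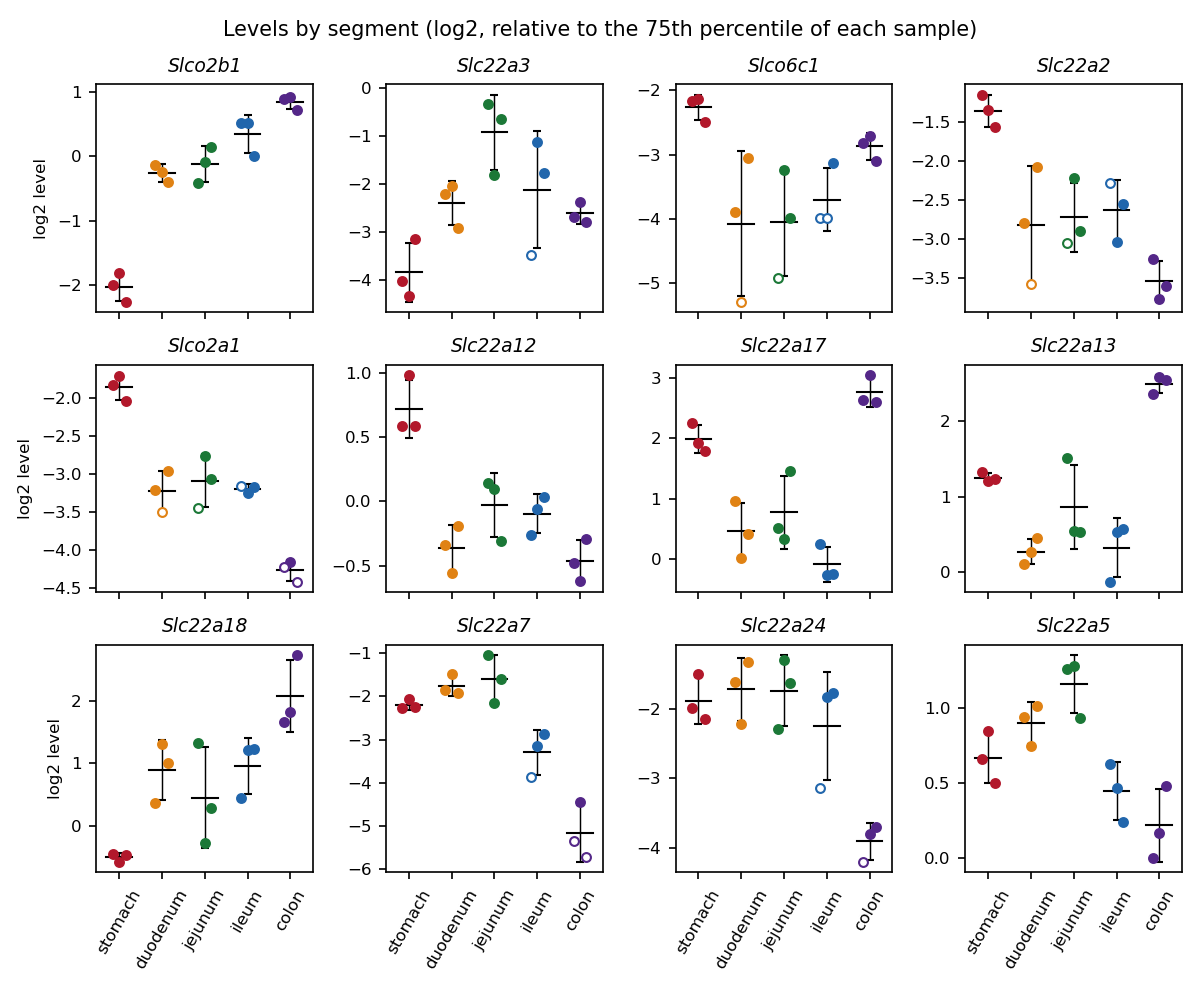
Log2 level in each sample of 12 Slco and Slc22a genes by segment, with the mean (wide bar) and the SD of 3 samples (thin bar), colon 2 and 3 being scans that name 1 slide. Filled points were well above background and open points were not. Slco2b1 is lowest in the stomach and Slc22a7 lowest in the colon, and the 3 colon points of Slc22a13 lie above all others.

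Among the Slco genes, Slco2b1 and Slco2a1 went opposite ways along the tract. Slco2b1, an uptake carrier of sulphated steroids and drugs in enterocytes, was lowest in the stomach and highest in the colon. It had stomach levels of -2.01, -1.82 and -2.26, duodenum levels of -0.13, -0.24 and -0.40, jejunum levels of -0.42, -0.08 and 0.15, ileum levels of 0.52, 0.53 and 0.01, and colon levels of 0.90, 0.92 and 0.72. The stomach samples lay below all 12 others and the colon samples above all 12 others. The difference of stomach minus small bowel was -2.02 ± 0.21 (4.06-fold lower in the stomach, adjusted p = 1.48e-06). With no further scaling it was -1.17 (adjusted p = 0.0228). Its other probe gave -1.33 (adjusted p = 0.000232).

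Small bowel minus colon was -0.86 ± 0.27 for the brighter Slco2b1 probe (adjusted p = 0.0251) and -0.24 for the other (adjusted p = 0.561). Without colon 1 or colon 2 the brighter probe gave -0.83 in either case, with adjusted p of 0.0833 and 0.0526, and with colon 2 and 3 as 1 sample it gave -0.87 (adjusted p = 0.0529). With no further scaling the brighter probe gave 0.41 (adjusted p = 0.523). In the order colon, ileum, jejunum, duodenum no neighbouring pair was called. Ileum minus colon was -0.51 ± 0.31 (adjusted p = 0.301) although these samples did not overlap, and stomach minus duodenum was -1.78 ± 0.26 (adjusted p = 7.79e-05).

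Slco2a1, the prostaglandin transporter, had stomach levels of -1.83, -1.72 and -2.03, duodenum levels of -3.21, -3.49 and -2.96, jejunum levels of -3.45, -2.76 and -3.06, ileum levels of -3.15, -3.26 and -3.17, and colon levels of -4.22, -4.15 and -4.42. The stomach lay above all 12 other samples and the colon below all 12. Stomach minus small bowel was 1.31 ± 0.28 (adjusted p = 0.00167) and small bowel minus colon 1.08 ± 0.35 (adjusted p = 0.0302), with 1 of 3 colon samples well above background. The gene was tested only because its stomach spots were bright enough, so the filter chose it through the segment where it was high. After normexp the first was 0.43 (adjusted p = 0.188) and the second -0.18 (adjusted p = 0.616). The second also lost its call without stomach 1 or 2, jejunum 2 or 3, or colon 1 or 3 (1.02 to 1.08, adjusted p = 0.0511 to 0.0813), and with colon 2 and 3 as 1 sample (1.08, adjusted p = 0.0534).

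Of 4 other prostaglandin genes, cyclooxygenase Ptgs1 was higher in stomach than small bowel (1.18 ± 0.26, adjusted p = 0.00244). Hpgd, which breaks prostaglandins down after uptake, was lower there (-1.75 ± 0.24, adjusted p = 3.47e-05), and Ptgs2 and Ptges were not called. Of 6 endothelial markers 5 were higher in stomach than small bowel, and 1 was higher in small bowel than colon. Their mean level was -0.16 to 0.21 in stomach samples, -2.27 to -1.35 in samples of the small bowel and -2.15 to -2.10 in the colon. Their part in the result was not tested.

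Slco6c1 and Slco6b1, known from the rat testis, were dim. Slco6c1 had stomach levels of -2.18, -2.14 and -2.49, duodenum levels of -3.89, -5.28 and -3.05, jejunum levels of -4.91, -3.25 and -3.99, ileum levels of -3.98, -3.98 and -3.14, and colon levels of -2.82, -2.71 and -3.10. The stomach lay above all 12 other samples. Stomach minus small bowel was 1.67 ± 0.41 (adjusted p = 0.00543), and 0.45 after normexp (adjusted p = 0.156). Slco6b1 was not called in this contrast (0.83 ± 0.41, adjusted p = 0.148).

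Slco1c1, a thyroxine carrier of the blood-brain barrier, had stomach levels of -3.73, -3.39 and -3.34, duodenum levels of -2.97, -5.56 and -3.11, jejunum levels of -5.32, -3.04 and -3.15, ileum levels of -4.33, -3.62 and -3.92, and colon levels of -5.74, -6.41 and -5.33. Duodenum 2 and jejunum 1, the channels of one array, were low among the small bowel samples, and duodenum 2 overlapped with the colon. No colon sample was well above background, and 5 of the 9 small bowel samples were. With the colon set at the lowest signal of any probe well above background on each array, the small bowel was 1.69-fold higher. This is a rough value and no firm bound, because undetected spots enter on both sides (adjusted p of the fit = 0.0417). The fitted difference was reversed after normexp (-0.23, adjusted p = 0.563). The call was also lost without any one of stomach 1, 2 or 3, duodenum 3, jejunum 2 or 3, ileum 2 or 3, or colon 1 or 2, with adjusted p of 0.0545 to 0.0998, and with colon 2 and 3 as 1 sample (adjusted p = 0.0577).

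Slco3a1, a widely expressed carrier of prostaglandins and thyroid hormone, had stomach minus small bowel 0.72 ± 0.26 (adjusted p = 0.0494), with stomach 2 below 3 ileum and jejunum samples. It was not called when any one sample other than duodenum 1, jejunum 3 or ileum 1 was left out (0.62 to 0.81, adjusted p = 0.0537 to 0.209), or with colon 2 and 3 as 1 sample (adjusted p = 0.0591). After normexp the difference was 0.49 and was not called (adjusted p = 0.059). Slco4a1, a thyroid hormone carrier, and Slco5a1, of little known function, were well above background in all samples and called in no contrast. Their segment means spanned 0.69 to 1.28 and 0.39 to 0.99.

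The bile acid and thyroid hormone carriers Slco1a4 and Slco1a5, the liver carrier Slco1b2 and the kidney carrier Slco4c1 were also called in none of the 4 contrasts. Slco1a4 had means of 0.39 ± 0.27 (stomach), 0.03 ± 1.18 (duodenum), 0.22 ± 0.85 (jejunum) and 0.28 ± 0.25 (ileum) (SD, n = 3 each), and -0.46 ± 0.20 in the colon (n = 2, colon 2 and 3 averaged), and its other probe was called in none either. Slco1a4 and Slco1a5 are close relatives, and shared signal between them cannot be separated here. Slco1b2, well above background in 11 samples, had an SD of up to 0.86 within a segment (stomach), with colon 2 and 3 averaged. After normexp Slco1b2 was called in small bowel minus colon (-0.91, adjusted p = 0.0328). A p that misses the threshold at 3 samples a segment does not show that these levels are equal.

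**Figure D3:**
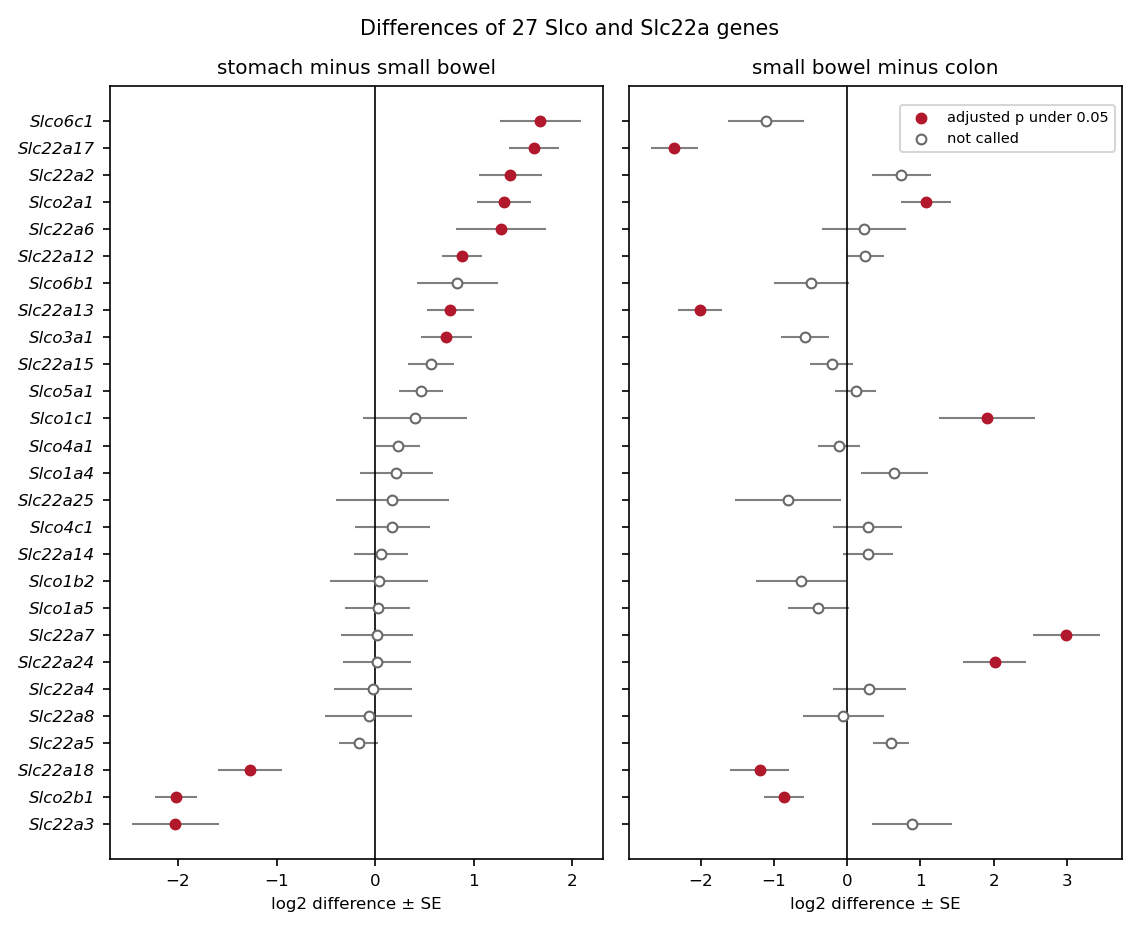
Log2 difference with its SE for 27 Slco and Slc22a genes, stomach minus small bowel on the left and small bowel minus colon on the right, in the same order of genes. Filled points are called at an adjusted p under 0.05. Slc22a17 and Slc22a13 lie right of 0 in the left panel and left of 0 in the right panel, and Slco2b1 and Slc22a18 left of 0 in both.

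Samples of stomach and small bowel did not overlap for 10 of the 28 genes (24.8% of all genes). The same was so for 2 genes in duodenum and jejunum (6.95% of all genes), 5 in jejunum and ileum (23.1%) and 7 in small bowel and colon (27.7%). The members' shares were 35.7%, 7.14%, 17.9% and 25.0%.

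Duodenum and jejunum samples shared arrays in pairs, so their difference could also be taken within an array. Slc22a3 was lower in the duodenum on all 3 arrays, by log2 differences of -1.58, -1.72 and -1.10, and the fit gave -1.55 ± 0.43 (unadjusted p = 0.00222, adjusted p = 0.15). Slc22a13 was lower on all 3 (-0.42, -1.24 and -0.10, adjusted p = 0.474). Slc22a12, Slc22a15 and Slco2a1 were lower on all 3 as well, with differences as small as -0.03 (Slc22a12) and -0.05 (Slco2a1). The other 23 genes had mixed signs. These within-array differences carry no dye term, and the share of all genes lower on all 3 arrays was not counted. Without jejunum 2, Slc22a3 was called, at -1.80 with an adjusted p of 0.0353. Without that sample the jejunum minus ileum contrast had 3 calls, Slc22a4 (1.73, adjusted p = 0.0309), Slc22a7 (1.93, adjusted p = 0.0241) and Slc22a17 (1.07, adjusted p = 0.0492).

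Other carriers, regulators and enzymes of the same physiology were mostly lower in the stomach. Of 30 genes in 5 lists, 2 were higher and 18 lower in the stomach, with a median difference of -0.99 against 0.28 over all tested genes. Among 13 efflux and companion transporters 8 were lower: the peptide carrier Slc15a1 by -8.39 ± 0.45, the efflux pump Abcg2 by -6.24 ± 0.41, each well above background in 2 of 3 stomach samples, and the bile acid carrier subunit Slc51b by -5.49 ± 0.31. The efflux pump Abcc1 was higher (1.62 ± 0.31). Both genes for scaffold proteins that anchor carriers in the apical membrane, Pdzk1 and Nherf1, were lower in the stomach (-2.27 ± 0.48 and -2.63 ± 0.24), and both were higher in the small bowel than in the colon (4.95 ± 0.61 and 1.43 ± 0.31). All adjusted p-values of these genes were at most 0.00255.

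Of 4 genes of carnitine use 3 were lower in the stomach. Slc25a20, the mitochondrial carnitine carrier, Cpt1a and Cpt2 were lower (-2.38 ± 0.21, -1.63 ± 0.26 and -0.72 ± 0.26, adjusted p = 1.76e-07, 0.000156 and 0.0475). Slc22a5 had -0.17 ± 0.20 in the same contrast (adjusted p = 0.563). The difference between those differences was not tested.

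Of 7 regulators, 4 were lower in the stomach, among them the xenobiotic receptor Nr1i2 (-1.49 ± 0.25, adjusted p = 0.000186) and the bile acid receptor Nr1h4 (-2.10 ± 0.34, adjusted p = 0.000152). Hnf4a, a factor of gut and liver epithelium, was lower in the duodenum than in the jejunum (-1.34 ± 0.26, adjusted p = 0.0272) and higher in the jejunum than in the ileum (1.93 ± 0.33, adjusted p = 0.00371). Duodenum minus jejunum had no other call among the 30 genes. In jejunum minus ileum 2 of the 30 were higher and 3 lower, the lower ones being Abcb1b, Slc51b and the ileal bile acid carrier Slc10a2 (-1.38 ± 0.30, adjusted p = 0.018). In small bowel minus colon 9 were higher and 2 lower, with Slc15a1 at 5.32 ± 0.57 (adjusted p = 4.81e-06) and the efflux pump Abcc4 at -0.99 ± 0.32 (adjusted p = 0.0327).

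Markers of some cell types other than epithelium also differed between the segments beside the stomach results. Fibroblast and matrix markers were higher in stomach than small bowel for 5 of 6 genes, with mean levels of 1.55 to 1.70 in stomach samples, -2.14 to -0.80 in samples of the small bowel and -2.18 to -2.09 in the colon. Neuron and glia markers were higher for 3 of 4, smooth muscle markers for 1 of 4, mast cell markers for 1 of 4 and macrophage markers for 0 of 5. The mast cell gene called was Hdc (3.60), while Cpa3 (-0.96), Kit (-0.24) and Fcer1a (0.92) were not called. Of 3 T cell genes 2 were lower in the stomach, and all 3 were higher in the small bowel than in the colon. Of 4 liver markers 3 were higher in the small bowel than in the colon, as Slc22a7 was, with mean levels of -1.62 to -0.74 in the small bowel and -2.45 to -2.20 in the colon. Their part in the differences of Slc22a17, Slc22a2, Slco2a1, Slco6c1 and the other genes named was not tested.

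Scaling moved the median of all genes, so directions were also read against it. The stomach minus small bowel median was 0.28 in the main scaling, 0.107 after quantile normalisation, 1.131 with no further scaling and -0.058 after normexp, and the small bowel minus colon median was -0.003, -0.048, 1.275 and -0.329 in the same settings. Relative to these medians, all 21 called differences of the 28 genes kept their sign in each of these settings and with scaling to the median of bright probes. Taken as they stand, Slc22a18 and Slco2b1 turned to 0.079 and 0.41 for small bowel minus colon with no further scaling.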

How the data were processed

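Per the labels, total RNA of each sample was amplified, labelled with Cy3 or Cy5 and hybridised to Agilent rat arrays. Duodenum and jejunum samples shared arrays in pairs of opposite dye. The deposited intensities were processed signals of the labelled channel, background-subtracted and dye-normalised by the Agilent software per the file headers. The deposited value table equalled them on 100% of spots (within 0.02 on the log2 scale), its column medians were 83.8 to 991 intensity units, and neither log scale nor centring was applied. Software versions 8.5.1.1 to 10.1.1.1 differed between segments. Stomach arrays were scanned at 10 micrometres per pixel and all other arrays at 5, and the part of this in the stomach differences was not tested. The genome build of the array was not given in the sources used here. Symbols came from the scanner files, updated through the RefSeq GRCr8 gene table.

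Log2 signals were scaled to each sample's 75th percentile, without non-uniform and outlier spots. Tests covered probes well above background in all samples of 1 or more segments, with the brightest probe per gene. limma 3.58.1 in R 4.3.3 fitted segment and dye, with a random slide effect (correlation 0.361), 9 residual degrees of freedom and an intensity trend, in two-sided tests. Every ileum sample was read in Cy3, so the dye term behind the ileum differences came from the other segments. Colon 1 and 2 were channels of 1 array, and colon 3 came from another scan that names the same slide, with the dye of colon 2. Normexp used median signals, because the colon files hold no mean signals. Replicate numbers did not pair the samples. The script was tested on simulated data. Members, contrasts and lists were chosen with earlier results of these data known. Genes with the 5 largest called differences in a contrast, or highest in a segment, are given in every sample. The counts include 1 gene that is not reported here. The number of arrays limits the precision.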

Additional observations from a re-analysis of the deposited data

How the results depend on the processing

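Of 21 called differences, 4 kept their call in every setting run, all in stomach minus small bowel: Slc22a12, Slc22a17, Slc22a2 and Slco2b1. Normexp kept 13 of the 21, scan day as block 16, quantile normalisation 16, no further scaling 13, the replicate block 20, and 11 were kept whichever single sample was left out. Reversals were 4, and their cause was not tested: small bowel minus colon became 0.079 for Slc22a18 and 0.41 for Slco2b1 with no further scaling, and -0.23 for Slco1c1 and -0.18 for Slco2a1 after normexp. The number of genes called by the F test became 21 with no further scaling, and small bowel minus colon then had 13 calls. In that setting the median of all genes was itself 1.131 for stomach minus small bowel and 1.275 for small bowel minus colon. Shares of all genes called are not given for the counts in this section, so these counts do not set the 28 genes apart from the array. Jejunum minus ileum had 0 calls with no further scaling, scan day as block, the replicate block, or without duodenum 2 and jejunum 1 (chosen after seeing the data, as were the second probe of a gene and colon 2 and 3 as 1 sample). With colon 2 and 3 as 1 sample small bowel minus colon had 4 calls, having lost Slc22a18, Slco1c1, Slco2a1 and Slco2b1. The count of genes highest in 1 segment was 2 with quantile normalisation, and 1 with no further scaling or with scan day as block.

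Leaving out 1 sample at a time gave 10 to 15 calls by the F test, 8 to 13 for stomach minus small bowel, 0 to 1 for duodenum minus jejunum, 0 to 3 for jejunum minus ileum, 4 to 8 for small bowel minus colon and 1 to 4 genes highest in 1 segment. Samples with the same replicate number deviated from their segment means with correlations of -0.422 to 0.294 (median -0.013 over 30 pairs), so the numbers were not used as pairs, and the replicate block ended 1 of the 21 calls, that of Slc22a7 in jejunum minus ileum (1.63, adjusted p = 0.0648). Many members were dim, which limits their differences.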
